A study of Mus musculus with 6 samples.

Results

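The cytoplasmic actins Actb (beta-actin) and Actg1 (gamma-actin) were followed across the 6 two-colour cDNA arrays of the study. Their members were found by the array's probe annotation, which assigns 20 spots to Actb and 4 to Actg1 out of 31200 on each array. Each odd-numbered spot and the even-numbered spot after it carry the same clone, so these are 10 clones of Actb and 2 of Actg1 out of 15600. A clone is named here by its first spot. Neuro-2a, a mouse neuroblastoma cell line, was transiently transfected either with human TBP bearing a CAG repeat of 59 and tagged with GFP (59Q) or with the GFP vector pEGFPN3 (N3), and total RNA was taken 60 h later. Cy5 labelled the 59Q sample on 4 arrays (replicates 1, 3, 4 and 6) and Cy3 labelled it on 2 (replicates 2 and 5), with the N3 sample in the opposite dye of each array. The control therefore carries GFP but no transfected TBP, and no sorting of transfected cells before RNA extraction is described. The value of each spot is the deposited Z-ratio, a score scaled to a mean of 0 and an SD of 1 on each array, from which no fold change and no RNA level can be read. For this reason the neuroblast identity of the cells could not be checked from marker genes.

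Actins are the subunits of microfilaments. Monomers join and leave filament ends under the control of profilin, cofilin and thymosins, and every actin chain must first be folded by the cytosolic chaperonin. Beta- and gamma-actin are nearly identical proteins made from separate genes, and both are abundant in cultured cells and in growing neurites. In neurons the beta-actin mRNA is carried to growth cones by the binding protein Igf2bp1 and translated there, and the study grouped Actb with genes of localized translation. Actin genes are classical targets of serum response factor, which binds the CArG box, while TBP binds the TATA box. The coding sequences of both genes are so close that a cDNA probe of one may also bind the RNA of the other; how far the clones did so was not tested.

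The promoter sequences used here held no entry for Actb. The stretch before the start site of Actg1 is shown because the transfected protein binds promoters and both actins had the same sign on each array. It spans the 120 bases before the RefSeq start site, on the minus strand of mouse build GRCm38.p6, chr11:120348496-120348615. Capitals mark a CCAAT box, beginning 120 bases before the start, and a CArG box, beginning 90 bases before it.

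Actg1: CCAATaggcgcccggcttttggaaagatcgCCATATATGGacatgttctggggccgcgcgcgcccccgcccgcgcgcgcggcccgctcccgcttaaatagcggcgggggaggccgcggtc

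Searched on both strands over the 250 bases before a start site, CCAAT was found in 33.8%, the CArG box in 1.47% and TATAAA, the core of the TATA box, in 12.4% of 32851 RefSeq windows. The Actg1 window held no exact TATAAA. Variants of the TATA box were not searched for, and the AT-rich run ttaaata in the printed stretch was not assessed. The motifs do not overlap one another there. A match of letters is a description only.

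Both actins took the sign of the dye orientation on every array. The mean of the 10 Actb clones was 2.75, -1.82, 1.83, 0.580, -1.04 and 0.649 on replicates 1 to 6. The mean of the 2 Actg1 clones was 1.87, -1.77, 1.70, 0.968, -1.06 and 1.02. For both genes the 4 arrays with 59Q in Cy5 lay above 0 and the 2 arrays with 59Q in Cy3 below it, with no overlap. Of 4926 genes measured on all 6 arrays, 5.01% showed this sign pattern. Actb averaged 1.45 ± 1.04 (SD, n = 4) in the first orientation and -1.43 ± 0.548 (SD, n = 2) in the second. Actg1 averaged 1.39 ± 0.460 (SD, n = 4) and -1.41 ± 0.503 (SD, n = 2). As positions among all genes of an array, Actb stood at percentiles 99.7, 2.20, 98.3, 87.6, 6.96 and 82.3 on replicates 1 to 6. Actg1 stood at 98.2, 2.40, 98.0, 95.3, 6.83 and 91.3.

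**Figure D1:**
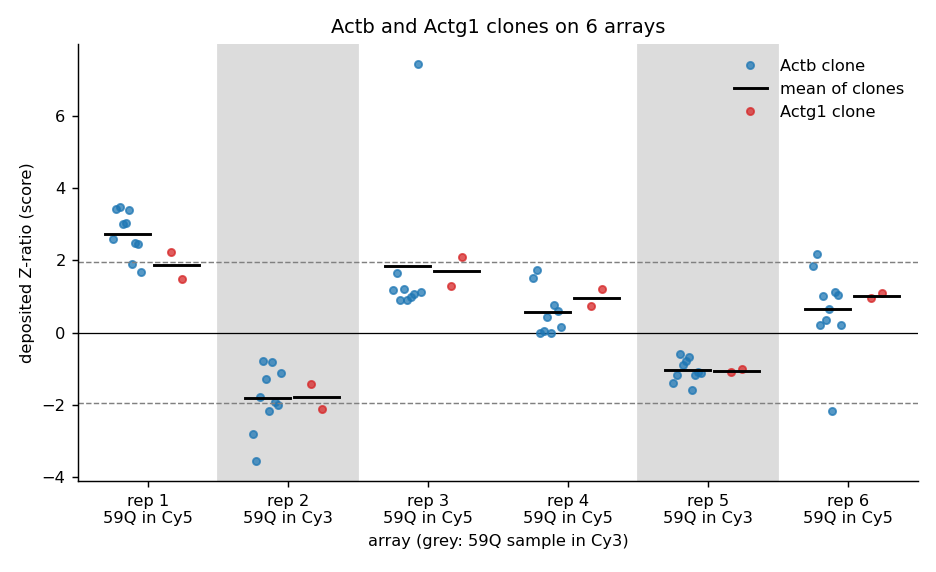
Deposited Z-ratio (score, vertical axis) of each Actb and Actg1 clone on the 6 arrays (horizontal axis; grey bands are arrays with 59Q in Cy3). Points are clones, black bars the mean of a gene's clones, and dashed lines lie 1.96 above and below 0. On replicates 1, 3, 4 and 6 the bars lie between 0.580 and 2.75, and on replicates 2 and 5 between -1.82 and -1.04.

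Whether this pattern is a rise in 59Q transfected cells depends on which way the deposited ratio runs, and the sources used here do not state it array by array. Taken as 59Q over N3 on every array, the orientations cancel only in part. With 59Q in Cy5 on 4 arrays and in Cy3 on 2, values that follow the dye need not average to 0. In this reading the mean was 0.491 ± 1.71 for Actb and 0.455 ± 1.51 for Actg1 (SD, n = 6). Both means were smaller than the spread between arrays, and neither gene passed in limma (adjusted p = 0.999 for both). The exact 2-sided sign-flip permutation test over the 6 arrays gave p = 0.500 for each gene. Single arrays moved these means: they were 0.0397 and 0.173 without replicate 1, 0.953 and 0.900 without replicate 2, 0.222 and 0.207 without replicate 3, and 0.798 and 0.758 without replicate 5. Of the clones, 0 of 10 for Actb and 0 of 2 for Actg1 were called by limma at an adjusted p under 0.05, against 0% of all 14418 clones tested, and 0 of the 12 had an unadjusted p under 0.05. The clone means ran from -0.660 to 1.41 for Actb, with 9 of 10 above 0, and were 0.450 and 0.461 for Actg1.

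If the ratio instead runs from Cy5 to Cy3, so that replicates 2 and 5 change sign, both actins lay above 0 in 59Q on all 6 arrays. Actg1 then had a mean of 1.40 ± 0.422 (SD, n = 6) and passed in limma as a gene (adjusted p = 0.0442), one of 17 genes called higher, or 0.263% of 6463 tested. Actb had the larger mean and the wider spread, 1.45 ± 0.840 (SD, n = 6), and did not pass (limma adjusted p = 0.0770). By unadjusted p in this reading Actg1 ranked 5 and Actb 60 among the genes. The exact sign-flip permutation p was 0.0312 for both, the smallest that 6 arrays allow. That p is fixed once all 6 turned values share a sign, so it adds nothing to the sign pattern. Any of the 5.01% of 4926 genes with that pattern would get the same p. Both Actg1 clones were called, and 3 of the 10 Actb clones, against 1.89% of all clones called higher. The calls depended on single arrays, over the whole array as for the actins. Without replicate 1, 2 or 6 limma called 0 clones of either gene, and 0, 0 and 10 of all clones as higher (2275, 2241 and 2305 at an unadjusted p under 0.05). Without replicate 3 it called 1 clone of Actb and 0 of Actg1 among 39 of 14370 clones called higher. Without replicate 4 it called 2 and 1 among 85 of 13825, and without replicate 5 it called 3 and 2 among 329 of 12860. As a gene Actg1 passed without replicate 5 (adjusted p = 0.0479), where 30 of 5972 genes were called higher. Without any other single array it did not pass (adjusted p from 0.0785 to 0.124), and neither did any other gene.

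A limma fit with a dye term has an intercept, the part of the deposited Z-ratio that keeps its sign in both orientations. This intercept was near 0, at 0.0101 ± 0.332 (SE) for Actb and -0.0115 ± 0.234 (SE) for Actg1. It is a 59Q effect only if the ratio runs 59Q over N3 on every array. The dye coefficient, which is the part of the Z-ratio that changes sign with the orientation, was 1.44 ± 0.332 (SE) for Actb and 1.40 ± 0.234 (SE) for Actg1. These coefficients ranked 71 and 76 from the top among 6463 genes. Neither passed (limma adjusted p = 0.171 and 0.134), nor did any of the 12 clones (adjusted p from 0.0561 to 0.704), against 0% of 14418 clones. Of the 12 clones, 11 had an unadjusted p under 0.05 for the dye coefficient, a level reached by 15.2% of all clones. A dye effect on the actin clones and a 59Q effect in values that run Cy5 over Cy3 cannot be told apart. The sample labels also number the channels, and this number does not follow the dye: 59Q was in channel 1 on replicate 1 only. A reading as channel 1 over channel 2, by these label numbers, turns every array but replicate 1. It gives means of 0.425 for Actb and 0.167 for Actg1, neither of which passed in limma (adjusted p = 0.9999 for both). As deposited, replicate 1 correlated with replicates 3, 4 and 6 at r = 0.170 to 0.246 across clones, which are not independent replicates. Its r was -0.498 with replicate 2 and 0.00182 with replicate 5. Which direction the ratio runs was not tested.

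The sign pattern was shared by nearly every spot. Of 116 measured Actb spot values 113 had the sign of the dye orientation, as did 23 of 23 for Actg1. The 3 exceptions were the second spots of clones 8491 and 11735 on replicate 4, at -0.0919 and -0.0166, and the first spot of clone 12553 on replicate 6, at -7.44. Among clones measured on all 6 arrays, 8 of 9 for Actb and 2 of 2 for Actg1 lay above 0 on all Cy5 arrays of 59Q and below 0 on both Cy3 arrays; the exception was clone 8491. Over the whole array 8.44% of 10156 such clones did so, and 8.81% did the reverse.

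**Figure D2:**
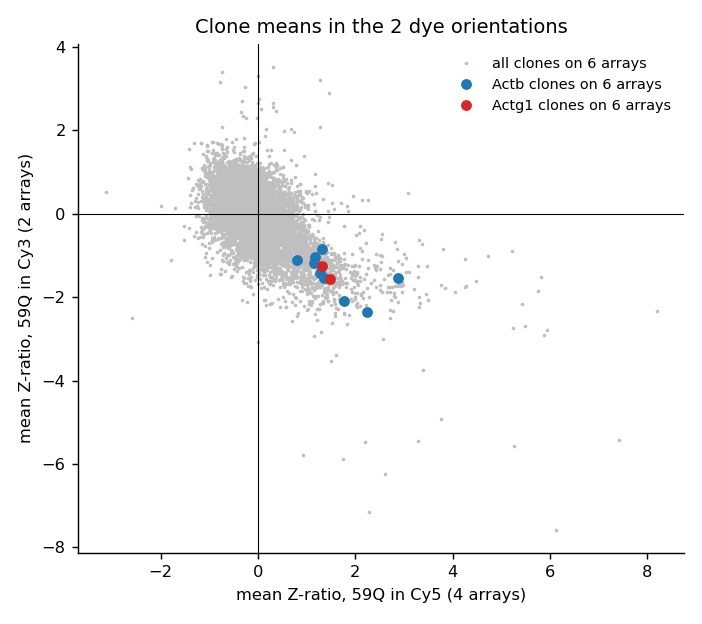
Mean Z-ratio over the 4 arrays with 59Q in Cy5 (horizontal axis) against the mean over the 2 arrays with 59Q in Cy3 (vertical axis), 1 point per clone measured on all 6 arrays. The 9 Actb and 2 Actg1 clones lie at the lower right, between 0.800 and 2.89 across and between -2.36 and -0.843 down, with the 10156 clones of the array in grey.

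The 2 Actg1 clones had the same sign on every array. Z-ratios of clone 10201 were 2.24, -1.43, 1.29, 0.734, -1.10 and 0.961 on replicates 1 to 6. Those of clone 25511 were 1.50, -2.11, 2.10, 1.20, -1.02 and 1.09. Neither clone was the higher one throughout: 10201 lay farther from 0 on replicates 1 and 5, and 25511 on the others. In the Cy5 over Cy3 direction their means were 1.29 ± 0.524 and 1.50 ± 0.495 (SD, n = 6), with limma adjusted p = 0.0351 and 0.0241.

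The Actb clones spread more widely, and the order among them differed between arrays. Clone 8471 stood at 3.43, -3.56, 1.66, 1.74, -1.16 and 2.17 on replicates 1 to 6. Clone 6533 stood at 2.59, -2.80, 1.18, 1.50, -1.40 and 1.84. These were the clones farthest from 0 on replicates 2 and 4, and on replicate 6 in the direction of the dye. Clone 13709, with 2.50, -1.91, 1.07, 0.780, -1.16 and 1.12, stayed nearer the middle of the group. These 3 were the clones called as Cy5 over Cy3, with means of 2.29 ± 0.990 for 8471, 1.89 ± 0.666 for 6533 and 1.42 ± 0.646 for 13709 (SD, n = 6; limma adjusted p = 0.0241, 0.0222 and 0.0352).

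Another set of Actb clones was high on replicate 1 and near 0 on replicate 4; it was noticed after the values were seen and was not tested. Clone 8491 stood at 3.47, -1.77, 0.897, -0.0194, -0.602 and 0.226 on replicates 1 to 6. Clone 11735 stood at 3.41, -2.16, 1.00, 0.00274, -0.661 and 0.658. Clone 9145 had 3.02, -0.780, 1.21, 0.0360, -0.906 and 1.01. On replicate 1 clone 8491 stood at percentile 99.8 of all clones and on replicate 4 at percentile 50.6. Clone 11219, at 3.03 on replicate 1, had 0.421 on replicate 4. Clone 22953 was lowest on replicate 1, at 1.67, and had -1.12, 1.14, 0.161, -1.11 and 0.227 on replicates 2 to 6. In the Cy5 over Cy3 direction these 5 clones had means from 0.904 to 1.31, and none passed in limma (adjusted p from 0.110 to 0.193). The unadjusted limma p of each was under 0.05, a level that 2709 of all 14418 clones reached in this direction.

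The remaining clones each held an extreme value. Clone 18909 had 2.46, -2.01, 7.45, 0.595, -1.09 and 1.05 on replicates 1 to 6, and its value on replicate 3 came from both spots, at 7.45 and 7.44. Clone 12553 was measured on 4 arrays, with 1.90, -0.804, -1.58 and -2.16 on replicates 1, 2, 5 and 6. Its spots on replicate 6 were at -7.44 and 3.12, so the clone value there is the mean of spots with opposite signs. The mean and the median of the Actb clones differed most on replicates 3 and 6. The median was 1.14 on replicate 3, against a mean of 1.83, and 0.834 on replicate 6, against 0.649. Without both clones, an alternative chosen after seeing the data, the Actb mean was 0.442 as deposited and 1.41 as Cy5 over Cy3, and it passed in limma in neither direction (adjusted p = 0.999 and 0.0841).

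**Figure D3:**
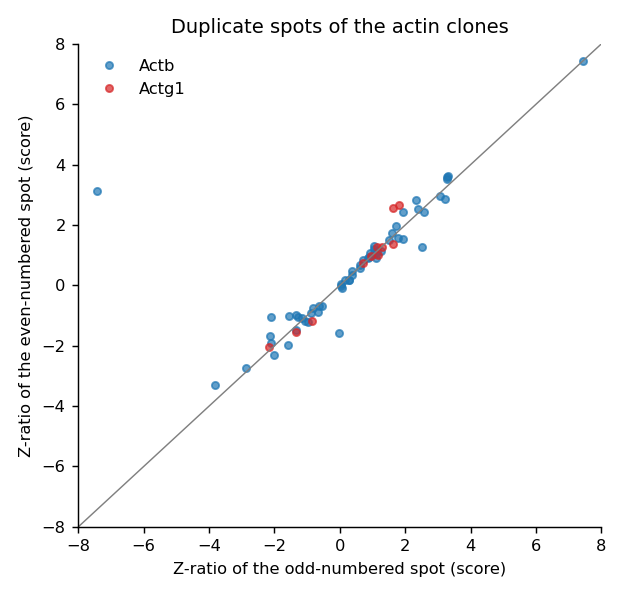
Z-ratio (score) of the odd-numbered spot (horizontal axis) against the even-numbered spot (vertical axis) of every Actb and Actg1 clone, 1 point per clone and array; the line marks equal values. The points follow the line apart from clone 12553, whose spots on replicate 6 were at -7.44 and 3.12, and clone 18909 lies on it at 7.45 and 7.44.

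Duplicate spots of the Actb clones agreed more closely than different clones did. The SD between duplicate spots was 0.0865 to 0.428 on replicates 1 to 5 and 2.37 on replicate 6, where clone 12553 sets it. The SD between Actb clones was 0.635, 0.886, 2.12, 0.654, 0.313 and 1.18 on replicates 1 to 6. It was larger than that between duplicate spots on all arrays but replicate 6. For scale, the 28 to 39 genes with at least 5 measured clones had a median SD between clones of 0.534 to 0.835. Counting from the widest, Actb ranked 29 of 39 on replicate 1, 18 of 39 on replicate 2 and 7 of 28 on replicate 3. It ranked 10 of 33 on replicate 4, 27 of 36 on replicate 5 and 4 of 36 on replicate 6. All clones of a gene report the same pair of RNA samples on an array.

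The methods take a Z ratio of 1.96 in size as significant, and here that threshold was applied to each clone on each array. At this threshold the actins stood out on replicates 1 and 2 more than on the others. On replicate 1, 8 of 10 Actb clones and 1 of 2 Actg1 clones lay at least 1.96 above 0, against 3.16% of all clones. On replicate 2, 4 of 10 and 1 of 2 lay at least 1.96 below 0, against 3.66%. On replicate 3, 1 of 9 and 1 of 2 lay above, against 1.96%. On replicate 4 none of 9 Actb clones and neither Actg1 clone did, against 1.34%. On replicate 5 none of 10 Actb clones and neither Actg1 clone lay at least 1.96 below 0, against 3.08%. On replicate 6, 1 of 10 Actb clones lay above the threshold, against 2.04%, and clone 12553 lay below -1.96. Apart from that clone, the counts were taken in the direction of the dye orientation on each array.

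The genes were not distinguishable from each other at this precision. The difference Actg1 minus Actb was -0.878, 0.0518, -0.137, 0.388, -0.0114 and 0.374 on replicates 1 to 6, a mean of -0.0355 ± 0.464 (SD, n = 6; exact 2-sided sign-flip permutation p = 0.844). Actb was the higher one on replicate 1, where the difference was largest in size, and without that array the mean difference was 0.133. With 3 arrays on each side of 0, these values do not show that the genes respond alike.

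Among 945 genes measured on all 6 arrays by at least 2 clones, likeness to each actin was taken as the mean absolute difference of Z-ratio over the arrays. Nearest to Actb were Gapdh, the glycolytic dehydrogenase (0.180), Eef1a1, the factor that brings aminoacyl-tRNA to the ribosome (0.246), the ribosomal proteins Rps18 (0.247) and Rpl32 (0.268), and Atp5b, the catalytic beta subunit of ATP synthase (0.287). Actg1 ranked 6 in this order, at 0.307, against a median of 1.62 over the 945 genes. Nearest to Actg1 were Rps18 (0.248), Rpl37 (0.262), Gapdh (0.267), Eef1a1 (0.300) and Actb (0.307), against a median of 1.57. Gapdh, for example, had Z-ratios of 2.54, -2.16, 1.76, 0.582, -0.965 and 1.02 on replicates 1 to 6, with the same signs as both actins on every array. All these values come from the same arrays, so the genes share each array's dye orientation and scaling.

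**Figure D4:**
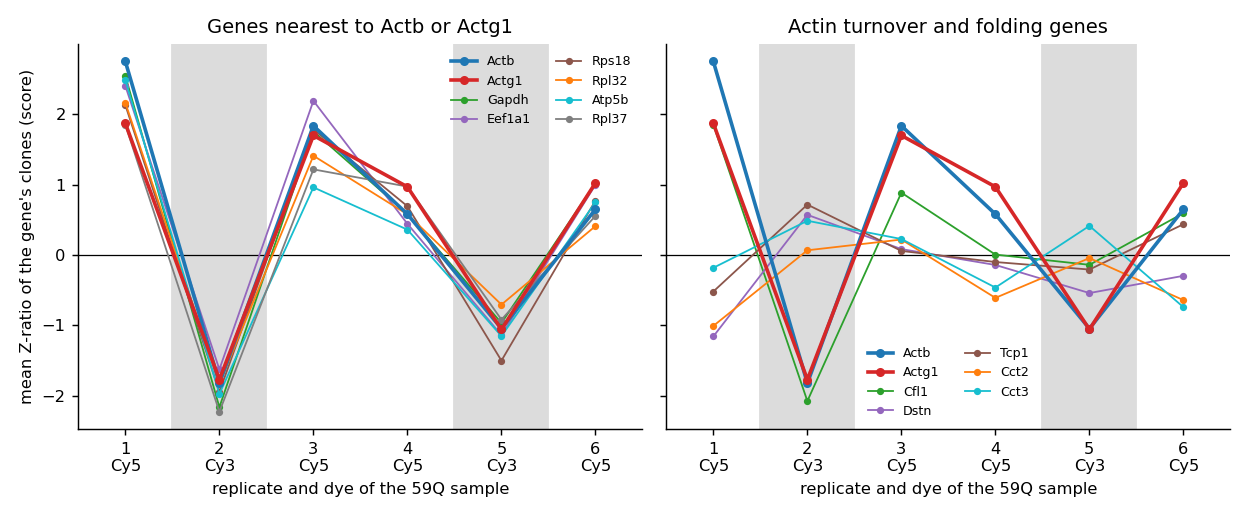
Mean Z-ratio (score, vertical axis) of a gene's clones on replicates 1 to 6 (horizontal axis, with the dye of the 59Q sample; grey bands are Cy3); lines only join the values of 1 gene. Left, the genes nearest to Actb or Actg1, which share their signs on all 6 arrays; right, Cfl1, Dstn, Tcp1, Cct2 and Cct3, of which only Cfl1 has the actins' sign on all 6.

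Genes that act on actin, or on its mRNA, lay on both sides of 0 in each list. The lists are set beside all 6463 genes tested, whose median Z-ratio was -0.0449 as deposited and -0.160 as Cy5 over Cy3. In the latter direction 4227 of these genes lay below 0, and 1282 had an unadjusted p under 0.05. A gene counts as measured on at least 4 arrays. Of the muscle actin isoforms listed (Acta1, Acta2, Actc1 and Actg2) none has a named probe in the annotation used, so 0 of 4 could be measured here. In all 7 other lists limma called 0 genes in either direction, under both readings, where over all genes it called 0 as deposited and 17 higher and 1 lower as Cy5 over Cy3.

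For monomer binding and filament turnover, 14 of 20 listed genes were measured, 7 above 0 and 7 below as deposited, with a median of 0.00127 and 0 at an unadjusted p under 0.05. In the other direction, as Cy5 over Cy3, 5 lay above 0 and 9 below, with a median of -0.202 and 5 at an unadjusted p under 0.05. Cfl1, the cofilin that severs filaments, had 1.85, -2.07, 0.885, 0.00600, -0.139 and 0.594 on replicates 1 to 6, with the sign of the dye throughout. Dstn, the related depolymerising factor destrin, had -1.16, 0.571, 0.0842, -0.141, -0.540 and -0.295, and matched the actins in sign on 2 arrays. Tmsb4x, thymosin beta 4, which holds monomers in reserve, was measured by 1 clone and ran from -11.3 on replicate 5 to 4.36 on replicate 3. Cap1, which recycles cofilin-bound monomers, and Tmsb10, another thymosin, were chosen after their values were seen. Both had the sign of the dye on 6 of 6 arrays, with means of 1.24 ± 0.507 and 0.520 ± 0.310 (SD, n = 6) as Cy5 over Cy3 (limma adjusted p = 0.0659 and 0.186). Of all genes on 6 arrays, 5.01% had this sign pattern. Wdr1 and Ssh1 of the same list, also chosen after their values were seen, had the sign of the dye on 0 of 6 arrays. Their means as Cy5 over Cy3 were -0.505 and -0.292 (limma adjusted p = 0.228 and 0.369). Among clones measured on all 6 arrays, 8.81% had this opposite pattern.

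Of the folding machinery, 13 of 16 listed genes of the chaperonin and prefoldin were measured. As deposited 6 lay above 0 and 7 below (median -0.0427, 0 at an unadjusted p under 0.05), and as Cy5 over Cy3 4 lay above and 9 below (median -0.343, 5 at an unadjusted p under 0.05). The chaperonin subunits Tcp1, Cct2 and Cct3 had mean Z-ratios of 0.0645 ± 0.448, -0.335 ± 0.484 and -0.0427 ± 0.498 (SD, n = 6). As Cy5 over Cy3 they were at -0.105, -0.343 and -0.343. Another subunit, Cct7, chosen after its values were seen, had the sign of the dye on 6 of 6 arrays. It was at 0.833 ± 1.08 (SD, n = 6, limma adjusted p = 0.236). Cct8, Pfdn5 and Vbp1, chosen in the same way, had that sign on 1 of 6, 1 of 6 and 0 of 4 arrays. As Cy5 over Cy3 they were at -0.720, -0.561 and -0.617 (limma adjusted p = 0.176, 0.200 and 0.226). For the enzymes that modify actin, 3 of 8 were measured, 1 above 0 and 2 below (0 at an unadjusted p under 0.05). Setd3, the histidine methyltransferase of actin, had a mean of -0.340 ± 1.10 (SD, n = 5), and its sign was opposite to that of the actins on all 5 arrays. Naa15, a subunit of an N-terminal acetyltransferase, was at 0.0250, and Msrb1, which reduces oxidised methionines of actin, at -0.0508.

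For transport and local translation of beta-actin mRNA, 11 of 16 genes were measured, 5 above 0 and 6 below as deposited (median -0.0557, 0 at an unadjusted p under 0.05). Igf2bp1, which binds the beta-actin zipcode, was measured by 4 clones and averaged -0.228 ± 0.497 (SD, n = 6). Khsrp, a KH-domain RNA-binding protein, and Igf2bp3, a relative of Igf2bp1, were at 0.216 ± 0.390 and 0.00543 ± 0.410 (SD, n = 6). For the serum response factor pathway 10 of 19 genes were measured, 6 above 0 and 4 below (median 0.0300, 2 at an unadjusted p under 0.05). Its first measured members were Vcl, the focal adhesion protein vinculin, at 0.339 ± 0.472 (SD, n = 4), Fos at 0.272 ± 0.294 and Egr1 at 0.316 ± 0.789 (SD, n = 6). Turned to Cy5 over Cy3, Vcl was at -0.172, Fos at 0.0279 and Egr1 at -0.550. Of the actin-related proteins 4 of 8 were measured, 2 above 0 and 2 below (1 at an unadjusted p under 0.05). Actl6a, a subunit of chromatin remodelling complexes, was at 0.595 ± 1.23 (SD, n = 6), with 3.03 on replicate 4, while Actr6 and Actr8 were at 0.513 and -0.524.

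Other genes that serve as expression references were divided. Of 13 listed, 10 were measured, 8 above 0 and 2 below as deposited (median 0.170, 1 at an unadjusted p under 0.05), and 4 above and 6 below as Cy5 over Cy3 (median -0.0348). Gapdh and Ppia, cyclophilin A, carried the sign of the dye throughout and averaged 1.50 ± 0.768 and 1.19 ± 0.751 (SD, n = 6) as Cy5 over Cy3 (limma adjusted p = 0.0659 and 0.0926). Hprt, the purine salvage enzyme, had -1.09, 0.146, -0.680, -0.597, 0.282 and 0.341, and matched the actins in sign on 1 of 6 arrays.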

How the data were processed

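Total RNA of 59Q and N3 transfected Neuro-2a cells was hybridized in pairs to 6 mouse cDNA arrays. The authors labelled it by tyramide signal amplification, read the slides with GenePix Pro and deposited a Z-ratio per spot, a score by the Z score method; no version was stated for either step. The number of arrays limits the precision. All 6 columns matched a sample.

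Duplicate spots were averaged into clones and clones into genes. Of the spots, 18384 have 1 gene symbol, 514 several and 12302 none here; 18172 were named by Entrez ID from a table of GRCm38.p6. With limma 3.58.1 (R 4.3.3; lmFit with an intercept, or an intercept and dye, eBayes, Benjamini-Hochberg over all) every clone (14418) and gene (6463) measured on 4 or more arrays was tested, after a check on simulated data. Sign-flip tests were exact. The arrays were taken as replicates; the series names 4 biological replicates and flip-dye pairs that are not identified, so p-values may measure technical spread. Same-orientation arrays correlated at 0.0504 to 0.341 across clones, opposite ones at -0.498 to 0.00182.

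Named were all members and muscle isoforms, the first 3 measured genes of each of 7 other lists, and the 5 genes nearest each actin. Members and lists were chosen with earlier results of these data known. Array alternatives covered direction, dye, arrays used, centring, quantile normalization, clipping at 5, missing values, summary, variance, filter, duplicate spots and replicates left out.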

Additional observations from a re-analysis of the deposited data

Results flagged for a closer look

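Both actins take opposite signs in the 2 dye orientations, above 0 on 4 of 4 Cy5 arrays of 59Q and below 0 on 2 of 2 Cy3 arrays. The same held for 5.01% of 4926 genes measured on all 6 arrays. The dye coefficient was 1.44 for Actb and 1.40 for Actg1 (limma adjusted p = 0.171 and 0.134), so the difference between orientations did not pass over all genes. By Dixon's test over its arrays no value of either gene or any clone was an outlier. Clone 18909 nevertheless had 7.45 on replicate 3, and its mean as deposited was 0.200 without that array, against 1.41 with it.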

How the results depend on the processing

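Both gene means lay above 0 in all 3 directions tried for the ratio, while their size and calls depended on it. The 3 directions use the same values with signs turned, and 59Q was in Cy5 on 4 arrays and in Cy3 on 2. Their shared sign was therefore not a separate test of a rise in 59Q. As deposited, neither gene passed under any alternative but 1: Actg1 was 1.40 and passed as Cy5 over Cy3. Arrays with 59Q in Cy3 alone turned both means (-1.43 for Actb, -1.41 for Actg1), and the dye term turned Actg1 (-0.0115). The same Cy3 arrays turned the clones too, to -2.10 (6533), -2.36 (8471), -1.19 (8491), -0.843 (9145), -1.03 (11219), -1.41 (11735), -1.53 (13709), -1.55 (18909), -1.11 (22953), -1.26 (10201) and -1.56 (25511). With the dye term clones changed sign to -0.163 (6533), -0.0562 (8471), -0.0220 (8491), -0.0714 (11735), -0.0834 (13709), -0.157 (22953) and -0.0447 (25511). Leaving out each array in turn, ranges that cross 0 were -0.255 to 0.795 (8491), -0.0762 to 0.787 (11219), -0.231 to 0.881 (11735), -0.0192 to 0.862 (13709) and -0.140 to 0.418 (22953), each lowest without replicate 1. Clone 12553, below 0 as deposited, was 0.531 as Cy5 over Cy3, 1.61 as channel 1 over channel 2 and 0.443 from even spots, and clone 18909 was -0.588 by channel.

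The difference Actg1 minus Actb was 0.0202 on the Cy3 arrays of 59Q, 0.208 on replicates 3, 4 and 6, 0.0795 from clone medians, 0.0119 from odd spots and 0.0129 without clones 12553 and 18909. It ran from -0.120 to 0.133 leaving out each array. The Actg1 dye coefficient passed only among clones with both spots on all arrays (1.52, limma adjusted p = 0.0432), where it rests on 1 clone, 25511. Clones called rose from 0 to 3 for Actb and from 0 to 2 for Actg1 as Cy5 over Cy3. Leaving out each array in that direction, chosen after seeing the data, gave 0 to 3 Actb and 0 to 2 Actg1 clones, among 0 to 329 of all clones called higher, and an Actg1 mean of 1.30 to 1.48. The causes were not tested. The number of arrays, 2 in 1 orientation, limits every comparison.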
